A study of Mus musculus with 227 samples.

Results

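The genes described here are 47 members of the cell cycle machinery, of 24388 genes in the deposited expression table of single cells from mouse long bones. The members were listed by name for their known roles, with earlier results of these data known, and all 47 had a row in the table. They fall into 21 genes of G2 phase and mitosis, called mitotic genes below, and 18 genes of S phase. The others are 3 chromatin and tubulin-binding genes and 5 regulators of G1 phase. The 3 are called abundant genes below, a list name and not a measure of their level here. The series asked which transcripts mark a skeletal stem cell and the progenitor and stromal cells downstream of it. Cells were taken from the bone and marrow tissue of BL6 mice at postnatal day 3, sorted by flow cytometry, captured singly on the Fluidigm C1 microfluidic platform and sequenced with ERCC spike-in RNA added. Cells labelled 6C3+ were gated as CD45-Ter-119-AlphaV+Thy-6C3+CD105+, and theirs is the gate that does not name Tie2. Cells labelled THY+ were CD45-, Ter119- and Tie2- and then AlphaV+Thy+6C3-CD105+. Cells labelled CSP were CD45-, Ter119- and Tie2- and then AlphaV+Thy-6C3-CD105+, and cells labelled mSSC shared that gate except that they were CD105- and CD200+. The labels give no difference in genotype or treatment between the populations.

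A dividing cell passes through G1, in which D-type cyclins with their kinases push it towards division and the inhibitors of cyclin-dependent kinases hold it back. In S phase the replicative helicase, the sliding clamp and the enzymes that make deoxynucleotides copy the DNA. In G2 and mitosis the cyclin B kinase, the spindle motors, the kinetochore proteins and the chromosomal passenger complex condense and part the chromosomes. In the bones of newborn mice, division is known from the columnar cartilage of the growth plate and from the fibrous layers around it.

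FPKM of 1 or more in a cell counted as detection of a gene there. The values below cover the cells with at least 1000 detected genes, which were 34 of 92 cells of 6C3+, 43 of 72 of THY+, 11 of 26 of CSP and 37 of 37 of mSSC. Their median number of detected genes was 2639 in 6C3+, 2835 in THY+, 3033 in CSP and 2534 in mSSC. The median share of FPKM in spike-ins was 18.9% in 6C3+ and 20.8% in THY+, against 0.000945% in CSP and 0.00117% in mSSC. Plates were inferred from the index names alone. The index pairs of 6C3+ and of THY+ each formed a set of their own, while CSP and mSSC shared 1 set. Such a set is called an index plate below. An effect of the plate cannot be told apart from the population except between CSP and mSSC, if the inference holds. No animal or culture is named, so each population counted as 1 sample, no p-value was computed, and the 95% Clopper-Pearson intervals below cover counting error between cells only. Depth in reads is unknown, and cells could not be thinned to a common depth. Among gate antigens, the transcripts of Thy1 and of Enpep, which encodes 6C3, were most frequent in the population gated for them. Thy1 was found in 9 of 43 THY+ cells and 0 cells of 6C3+, CSP and mSSC. Enpep was found in 9 of 34 6C3+, 3 of 43 THY+, 0 CSP and 0 mSSC cells. Other transcripts went against the labels. The CD105 gene Eng was found in 0 of 11 cells of CSP, a CD105+ gate, and 8 of 37 cells of mSSC, a CD105- gate. Cd200 was found in 9 of 11 CSP cells and 8 of 37 mSSC cells. Chondrocyte genes filled the cells of both of these labels, with Col2a1 in 10 of 11 CSP and 35 of 37 mSSC cells, so the populations are called by their labels only.

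Cells with several mitotic genes at once were found in 3 of the 4 populations. A cell was placed in the mitotic range when at least 5 of the 21 mitotic genes were detected in it. That range held 7 of 34 6C3+ cells (20.6%, 8.70 to 37.9), 9 of 43 THY+ cells (20.9%, 10.0 to 36), 0 of 11 CSP cells, a count that allows a share of up to 27.3%, and 3 of 37 mSSC cells (8.11%, 1.70 to 21.9). The intervals of all 4 populations overlapped. A range of this kind is a count of transcripts and not a cell type or a measured phase, since DNA content is not among the values used here.

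The number of mitotic genes per cell was spread differently within the populations. The 3 highest 6C3+ cells held 20, 17 and 15 of the 21 genes, the 3 highest THY+ cells 21, 21 and 11, and the 3 highest mSSC cells 21, 20 and 18. None of the 21 was detected in any of the 11 CSP cells. In mSSC the cells fell into separate ranges, with 3 cells at 18 or more and the other 34 at 3 or fewer. In THY+ 7 cells lay between 5 and 14 genes, against 3 in 6C3+ and 0 in mSSC. Near the cut, 1 6C3+ cell held exactly 5 and none exactly 4, and 3 THY+ cells held exactly 4 and none exactly 5. No mitotic gene was detected in 22 of 34 6C3+, 18 of 43 THY+, 11 of 11 CSP and 20 of 37 mSSC cells.

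Cells with several S phase genes were found in all 4 populations. A cell was placed in the S range with at least 5 of the 18 S phase genes detected. That range held 10 of 34 6C3+ cells (29.4%, 15.1 to 47.5), 12 of 43 THY+ cells (27.9%, 15.3 to 43.7), 1 of 11 CSP cells (9.09%, 0.23 to 41.3) and 4 of 37 mSSC cells (10.8%, 3.03 to 25.4), again with overlapping intervals. The highest counts were 15 of 18 genes in 6C3+, 12 in THY+, 5 in CSP and 11 in mSSC. At least 10 S phase genes were held by 7 6C3+, 3 THY+, 0 CSP and 1 mSSC cells. This count had no gap at the cut: exactly 4 genes were held by 3 6C3+, 3 THY+, 1 CSP and 2 mSSC cells, and exactly 5 by 2 6C3+, 1 THY+, 1 CSP and 1 mSSC cells.

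**Figure D1:**
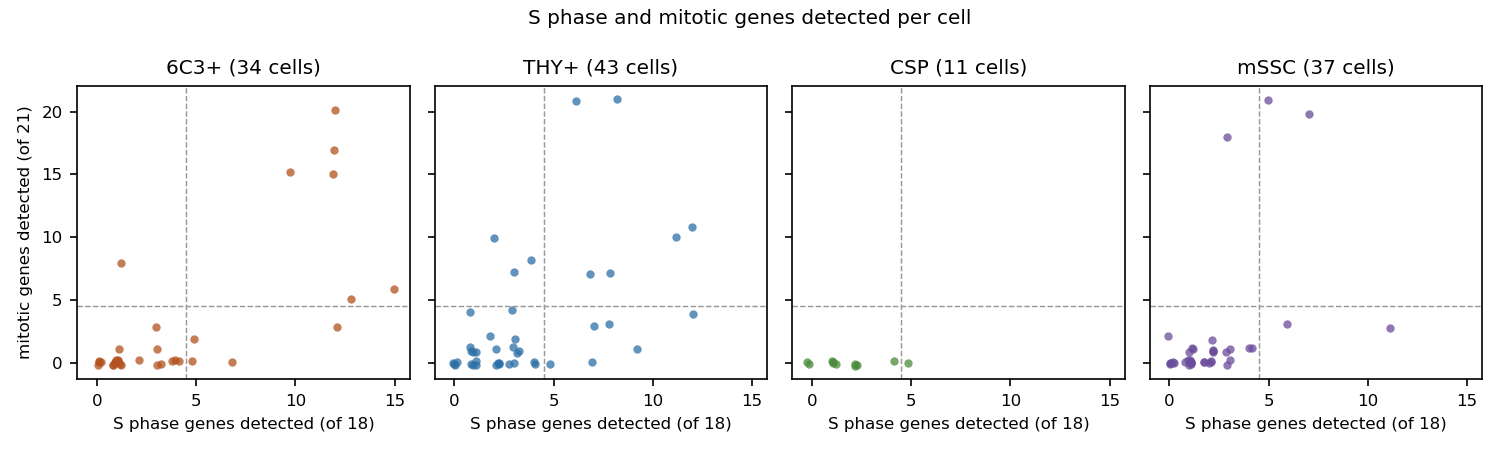
Number of S phase genes detected (x axis, of 18) against number of mitotic genes detected (y axis, of 21) in each cell with at least 1000 genes, 1 panel per population and 1 point per cell, shifted slightly so that equal counts do not hide each other. Dashed lines mark the cut of 5 genes on each axis. The 11 CSP cells lie at 0 mitotic genes, and the mSSC panel has 3 cells at the top and a gap beneath them.

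The mitotic genes were each seen in a minority of cells. Some reached high values there, though not each gene in each population. Top2a, the topoisomerase that untangles DNA before the chromosomes part, was detected in 8 of 34 6C3+ cells (23.5%, 10.7 to 41.2), 11 of 43 THY+ cells (25.6%, 13.5 to 41.2), 0 of 11 CSP cells and 5 of 37 mSSC cells (13.5%, 4.54 to 28.8). Its lowest and median FPKM over all cells were 0 in each population. Where it was detected, Top2a ran from 1.04 through a median of 47.3 to 438 FPKM in 6C3+, from 1.89 through 68.2 to 723.2 in THY+ and from 12.7 through 512 to 1198 in mSSC. So the populations overlapped in the cells that had it, and the single highest Top2a value belonged to an mSSC cell.

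Cdk1, the kinase that drives entry into mitosis, was detected in 8 6C3+, 9 THY+, 0 CSP and 5 mSSC cells, with highest values of 212 FPKM in 6C3+, 467 in THY+ and 1125 in mSSC. Mki67, the usual marker of proliferating nuclei, was detected in 6 6C3+, 10 THY+, 0 CSP and 5 mSSC cells. Ccna2, the cyclin that serves both S phase and G2, departed from this order with 5 6C3+, 7 THY+, 0 CSP and 7 mSSC cells. Its median where detected was 41.4 FPKM in 6C3+, 79.8 in THY+ and 7.60 in mSSC, and 4 of the 7 mSSC cells lay outside the mitotic range. Birc5, the survivin subunit of the chromosomal passenger complex, was detected in 5 6C3+, 9 THY+, 0 CSP and 4 mSSC cells and reached 2296 FPKM in 6C3+, 2455 in THY+ and 2282 in mSSC.

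The spindle and kinetochore genes gave similar counts. Tpx2, which builds spindle microtubules and activates Aurora A, was detected in 5 6C3+, 9 THY+, 0 CSP and 4 mSSC cells. Cenpe, the kinetochore motor, was detected in 5 6C3+, 10 THY+, 0 CSP and 3 mSSC cells. Nusap1, which bundles spindle microtubules, was detected in 6 6C3+, 5 THY+, 0 CSP and 4 mSSC cells. All 21 mitotic genes were detected at least once in 6C3+, in THY+ and in mSSC. Their shares of cells ran from 5.88% through a median of 14.7% to 23.5% in 6C3+, from 6.98% through 14% to 25.6% in THY+ and from 5.41% through 8.11% to 18.9% in mSSC.

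Since the mitotic genes were detected together, the bases upstream of their starts were searched for letters known from cell cycle promoters. Promoters came from RefSeq (build GRCm38.p6), as the 250 bases before each start, and 37 of the 47 members matched. The cell cycle homology region was searched as TTTGAA or TTCGAA and the CCAAT box as CCAAT, each on both strands. Top2a and Cdk1 are shown because they lead the mitotic genes in share of cells and hold both motifs, which stand in capitals and do not overlap. In mm10 Top2a lies on chromosome 11 (98992943 to 99024189, minus strand) and Cdk1 on chromosome 10 (69335146 to 69352938, minus strand), both protein-coding. The sequences run 5' to 3' on the gene's strand and end at the base before the RefSeq start.
Top2a, chr11:99024190-99024439, minus strand: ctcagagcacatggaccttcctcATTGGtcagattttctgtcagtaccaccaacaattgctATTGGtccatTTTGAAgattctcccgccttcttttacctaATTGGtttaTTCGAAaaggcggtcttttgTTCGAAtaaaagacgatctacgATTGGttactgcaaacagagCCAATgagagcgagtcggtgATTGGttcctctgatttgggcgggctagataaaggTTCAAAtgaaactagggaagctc
Cdk1, chr10:69352913-69353162, minus strand: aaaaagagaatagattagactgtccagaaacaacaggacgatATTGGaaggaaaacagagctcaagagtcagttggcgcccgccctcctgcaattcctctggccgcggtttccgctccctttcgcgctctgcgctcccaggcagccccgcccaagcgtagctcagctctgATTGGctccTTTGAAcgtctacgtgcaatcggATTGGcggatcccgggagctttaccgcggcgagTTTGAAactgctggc
Top2a held 4 matches to the homology region and 6 to the CCAAT box, and Cdk1 held 2 and 3. The homology region's letters were present in 8 of 18 matched mitotic genes (44.4%), 2 of 15 S phase genes (13.3%) and 17.1% of all 32851 promoters. CCAAT was present in 16 of 18 mitotic genes (88.9%), 9 of 15 S phase genes (60%) and 33.8% of all promoters. Among mitotic genes that are not members, 16 of 41 (39%) held the homology region and 28 of 41 (68.3%) held CCAAT. A match describes letters and not a bound site.

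Pcna stood apart from the other S phase genes. Pcna, the sliding clamp of the replication fork, was detected in 19 of 34 6C3+ cells (55.9%, 37.9 to 72.8), 21 of 43 THY+ cells (48.8%, 33.3 to 64.5), 6 of 11 CSP cells (54.5%, 23.4 to 83.3) and 17 of 37 mSSC cells (45.9%, 29.5 to 63.1). Its mean log2(FPKM + 1) was 2.81 in 6C3+, 2.83 in THY+, 3.08 in CSP and 2.55 in mSSC. Those shares were far above the S range in each population, and 40 of the 93 cells in neither range had Pcna.

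Shares of cells with the helicase and nucleotide genes differed more between the populations than those of Pcna. For each gene named in this paragraph, the intervals of all populations still overlapped. Mcm7, a subunit of the replicative helicase, was detected in 11 of 34 6C3+, 15 of 43 THY+, 3 of 11 CSP and 4 of 37 mSSC cells. Mcm6 was detected in 11 6C3+, 12 THY+, 2 CSP and 7 mSSC cells, and Mcm4 in 11 6C3+, 11 THY+, 1 CSP and 7 mSSC cells, both of them subunits of the same helicase. Rrm2, the regulated subunit of ribonucleotide reductase, was detected in 7 6C3+, 15 THY+, 2 CSP and 4 mSSC cells, and Rrm1, its partner subunit, in 9 6C3+, 14 THY+, 1 CSP and 4 mSSC cells. Tyms, which makes thymidylate, was detected in 12 6C3+, 11 THY+, 1 CSP and 3 mSSC cells. Uhrf1, which carries DNA methylation through replication, was detected in 10 6C3+, 11 THY+, 0 CSP and 6 mSSC cells. Of the 18 S phase genes 18 were detected at least once in 6C3+, 17 in THY+, 10 in CSP and 17 in mSSC. Their median share was 22.1% in 6C3+, 16.3% in THY+, 9.09% in CSP and 10.8% in mSSC.

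The S phase promoters were searched for E2F letters, TTTGGCGC, TTTCGCGC, TTTCCCGC or TTTGCCGC on both strands. Mcm6 and Mcm5 are shown as examples of helicase subunits with these letters, which stand in capitals. Mcm7 had them in 1 of its 2 RefSeq promoters and is not printed. In mm10 Mcm6 lies on chromosome 1 (128331590 to 128359664, minus strand) and Mcm5 on chromosome 8 (75109569 to 75128439, plus strand).
Mcm6, chr1:128359706-128359955, minus strand: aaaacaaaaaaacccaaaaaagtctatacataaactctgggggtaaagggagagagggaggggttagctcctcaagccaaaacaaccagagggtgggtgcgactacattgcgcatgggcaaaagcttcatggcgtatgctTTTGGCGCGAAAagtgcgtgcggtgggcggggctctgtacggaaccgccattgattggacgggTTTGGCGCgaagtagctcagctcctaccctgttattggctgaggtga
Mcm5, chr8:75109259-75109508, plus strand: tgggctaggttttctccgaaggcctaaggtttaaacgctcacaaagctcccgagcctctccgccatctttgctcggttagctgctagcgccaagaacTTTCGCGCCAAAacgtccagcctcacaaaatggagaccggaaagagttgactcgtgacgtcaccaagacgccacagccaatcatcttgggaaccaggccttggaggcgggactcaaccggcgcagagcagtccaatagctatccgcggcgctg
In both promoters 2 matches on opposite strands overlap to give a single longer run of capitals, and Mcm6 held a further match nearer its start. E2F letters were present in 5 of 15 matched S phase genes (33.3%), 1 of 18 mitotic genes (5.56%), which was Cdk1, and 1.86% of all promoters. They were present in 7 of 25 S phase genes that are not members (28%) and in 4 of 41 such mitotic genes (9.76%). Mcm5 was detected in 4 6C3+, 5 THY+, 0 CSP and 2 mSSC cells, fewer in each population than Mcm6, whose promoter held the same kind of letters.

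**Figure D2:**
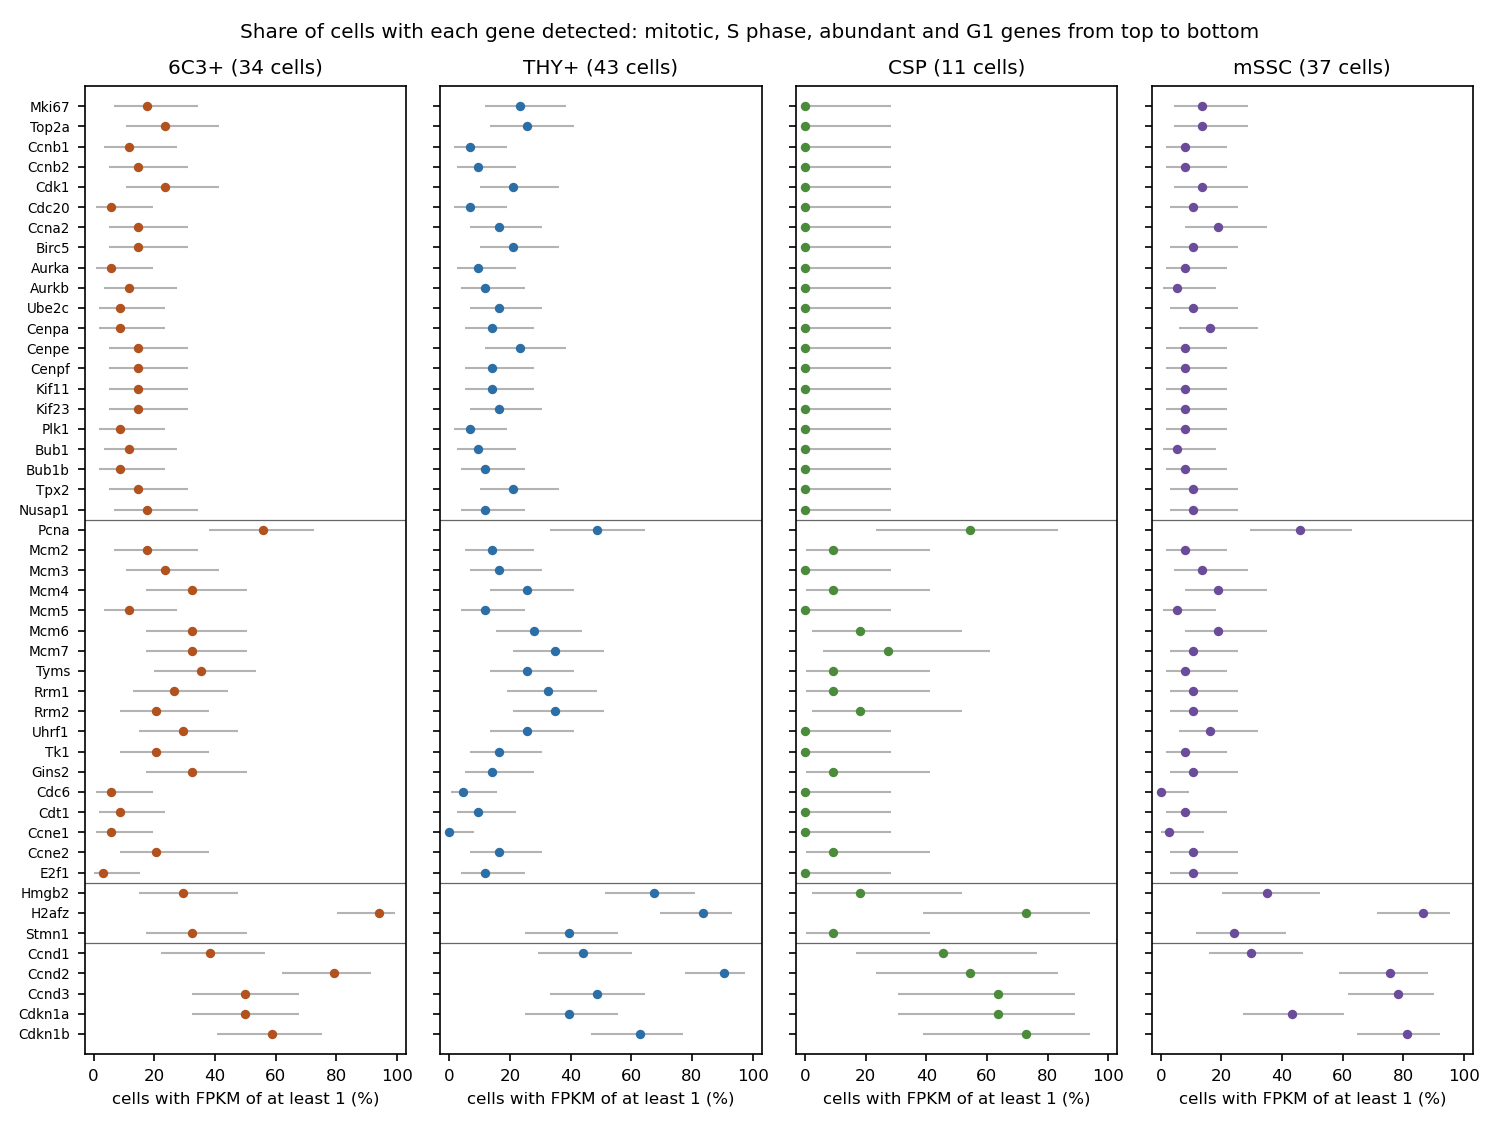
Share of cells with FPKM of at least 1 (x axis, percent) for each of the 47 members (y axis), 1 panel per population, with exact 95% intervals as lines. Mitotic genes stand at the top, then S phase, abundant and G1 genes, and the mitotic genes are all at 0 in the CSP panel.

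The mitotic and S ranges overlapped in 14 cells. Both ranges were met by 6 6C3+, 6 THY+, 0 CSP and 2 mSSC cells, the mitotic range alone by 1 6C3+, 3 THY+, 0 CSP and 1 mSSC cells, and the S range alone by 4 6C3+, 6 THY+, 1 CSP and 2 mSSC cells. In all, 32 cells were in at least 1 range and 93 in neither. Across cells the count of mitotic genes and the count of S phase genes had a Pearson r of 0.72 and Spearman rho of 0.63 in 34 6C3+ cells, 0.52 and 0.54 in 43 THY+ cells, and 0.48 and 0.57 in 37 mSSC cells. Both counts come from the same library of each cell and also moved with its number of detected genes, which had a Spearman rho with the mitotic count of 0.55 in 6C3+, 0.32 in THY+ and 0.55 in mSSC. The part of gene number in the joint detection was not tested.

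Single cells showed the combinations plainly. Cell 22 of 6C3+ held 20 mitotic and 12 S phase genes, cell 31 held 17 and 12, cell 9 held 15 and 12, and cell 51 held 15 and 10. Cell 22 of THY+ held all 21 mitotic genes and 8 S phase genes, cell 61 of THY+ held all 21 and 6, and cell 56 held 11 mitotic and 12 S phase genes. Cell 7 of mSSC held 21 mitotic and 5 S phase genes, cell 9 held 20 and 7, and cell 33 held 18 and 3. The opposite profile was seen in 6C3+ cell 68, with 6 mitotic and 15 S phase genes, in 6C3+ cell 46, with 3 and 12, in THY+ cell 28, with 4 and 12, and in mSSC cell 13, with 3 and 11. CSP cell 8 held 5 S phase genes and 0 mitotic genes. In the cells with at least 15 mitotic genes, the S phase count was 10 to 12 in 6C3+ cells and 3 to 8 in THY+ and mSSC cells.

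**Figure D3:**
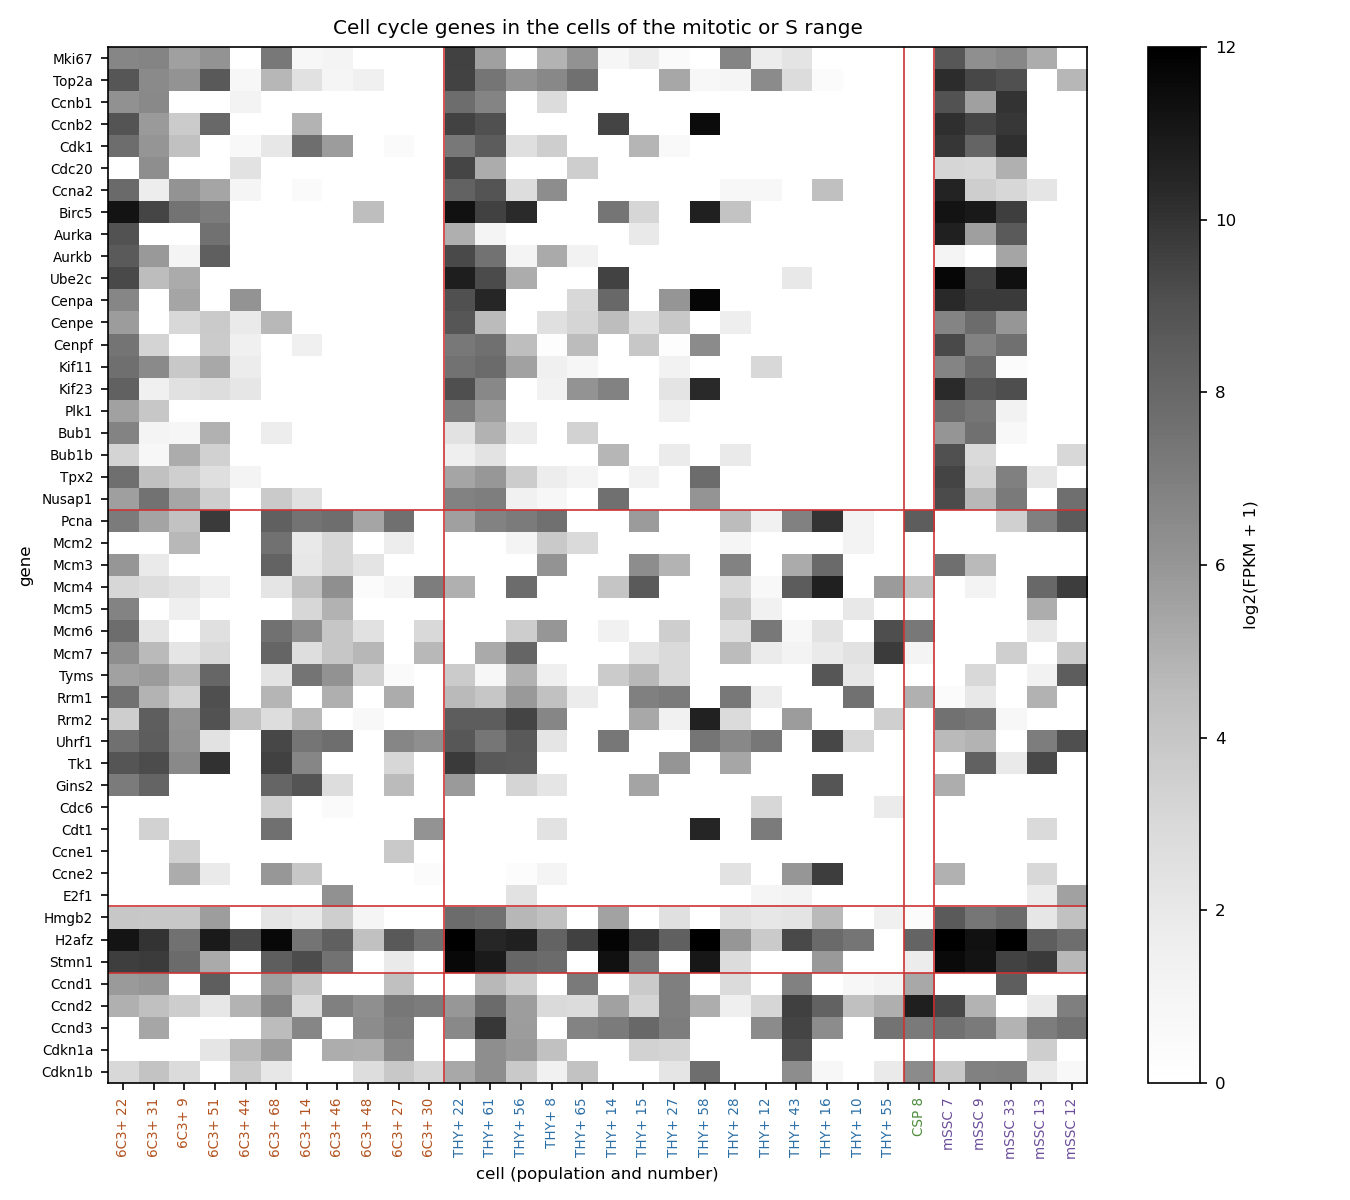
Level of each member (rows) in the 32 cells in the mitotic or S range (columns, grouped as 6C3+, THY+, CSP and mSSC), in shades of log2(FPKM + 1) from white at 0 to black at 12. The upper block holds the mitotic genes, filled in the left columns of 6C3+, THY+ and mSSC and white in CSP cell 8, and Cdc6, Ccne1 and E2f1 lower down are white in most columns.

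Which S phase genes accompanied a high mitotic count could be read from the 9 cells with at least 15 mitotic genes, 4 of 6C3+, 2 of THY+ and 3 of mSSC, since S phase genes did not enter that choice. Rrm2 and Uhrf1 were each detected in 8 of these 9 cells, Rrm1 and Pcna in 7, Tyms, Mcm7 and Mcm4 in 6, and Mcm6 in 3. 4 further members were picked out after their values were seen. Tk1, the thymidine kinase, was detected in 8 of the 9 cells, while Cdc6 and E2f1 were detected in 0 and Mcm2 in 1. In the 13 cells in the S range alone Rrm2 was detected in 3, Tk1 in 3, Mcm7 in 11, Mcm6 in 9, E2f1 in 4 and Cdc6 in 2. The counts are small, and the S range itself was set with these genes, so the second group is a description of which of them filled it.

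Cells with at least 15 mitotic genes were found in 6C3+, THY+ and mSSC, and the levels of single genes in them varied. In the cells with at least 15 mitotic genes Top2a ran from 69.1 through a median of 246 to 438 FPKM in 4 6C3+ cells, was 163.3 and 723.2 FPKM in 2 THY+ cells, and ran from 512 through 646 to 1198 FPKM in 3 mSSC cells. The mSSC values of Top2a lay above all 4 of 6C3+. Mki67 did not follow this order, at 47.5 to 105.2 FPKM in 6C3+, 47.8 and 736 in THY+, and 75 to 432 in mSSC, so its groups overlapped. The median spike-in share was 8.39% in these 6C3+ cells and 0.000648% in these mSSC cells, and its part in the levels was not tested.

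Genes outside the set filled the same cells. Of 51 other mitotic genes, 6C3+ cells in both ranges held 14 through a median of 33 to 38, against 0 through 1 to 6 in 6C3+ cells in neither range. THY+ cells in both ranges held 11 through 27.5 to 43, against 0 through 2 to 9 in neither. The 2 mSSC cells in both ranges held 35 and 44, against 0 through 2 to 5 in neither. No cell in neither range reached the count of any cell in both. Over cells, the count of mitotic members and the count of other mitotic genes had a Pearson r of 0.98 and Spearman rho of 0.79 in 6C3+, 0.97 and 0.83 in THY+, and 0.99 and 0.52 in mSSC. The most frequent of the other mitotic genes were Smc4 and Smc2, the condensin core, Cks1b, a small partner of cyclin-dependent kinases, and Hjurp, the chaperone that loads the centromeric histone. Smc2 was detected in 17 of 19 cells of the mitotic range and 14 cells outside it, Smc4 in 18 within and 43 outside, and Cks1b in 16 within and 35 outside. Hjurp was detected in 14 of 32 cells in either range and 17 of 93 in neither.

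Of 35 other S phase genes, 6C3+ cells in both ranges held 18 through a median of 19.5 to 23, against 0 through 2 to 14 in 6C3+ cells in neither range. THY+ cells in both ranges held 12 through 14.5 to 25, against 1 through 4 to 12 in neither, and the 2 mSSC cells in both ranges held 3 and 8, against 0 through 3 to 8 in neither. In mSSC, therefore, the cells in both ranges lay inside the span of the cells in neither for these genes, while in 6C3+ they lay above that span. 6C3+ cell 46, in the S range alone, held 20 of them. The fullest mSSC cell for other S phase genes was cell 13, in the S range alone, with 19. Dut, which keeps uracil out of DNA, was detected in 13 of 14 cells in both ranges, 9 of 13 in the S range alone and 36 of 93 in neither. Lig1, the ligase of the lagging strand, was detected in 13 of the cells in both ranges, 10 of those in the S range alone and 17 of those in neither. For Nasp, a histone chaperone, these counts were 10 in both, 11 in the S range alone and 31 in neither, and for Slbp, which binds histone messages, 8 in both, 7 in the S range alone and 31 in neither.

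A few genes differed in detection between the S range alone and the top of the mitotic range, and these were picked out after their values were seen. The counts are small and pool populations on different plates. Asf1b, a histone chaperone listed here with S phase, was detected in 8 of the 9 cells with at least 15 mitotic genes, 2 of 13 in the S range alone and 0 of 93 in neither. Rad51ap1, a recombination factor, was detected in 6 of the 9, 1 of the 13 and 1 of the 93. Ung, which removes uracil from DNA, was detected in 0 of the 9, 5 of the 13 and 6 of the 93.

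**Figure D4:**
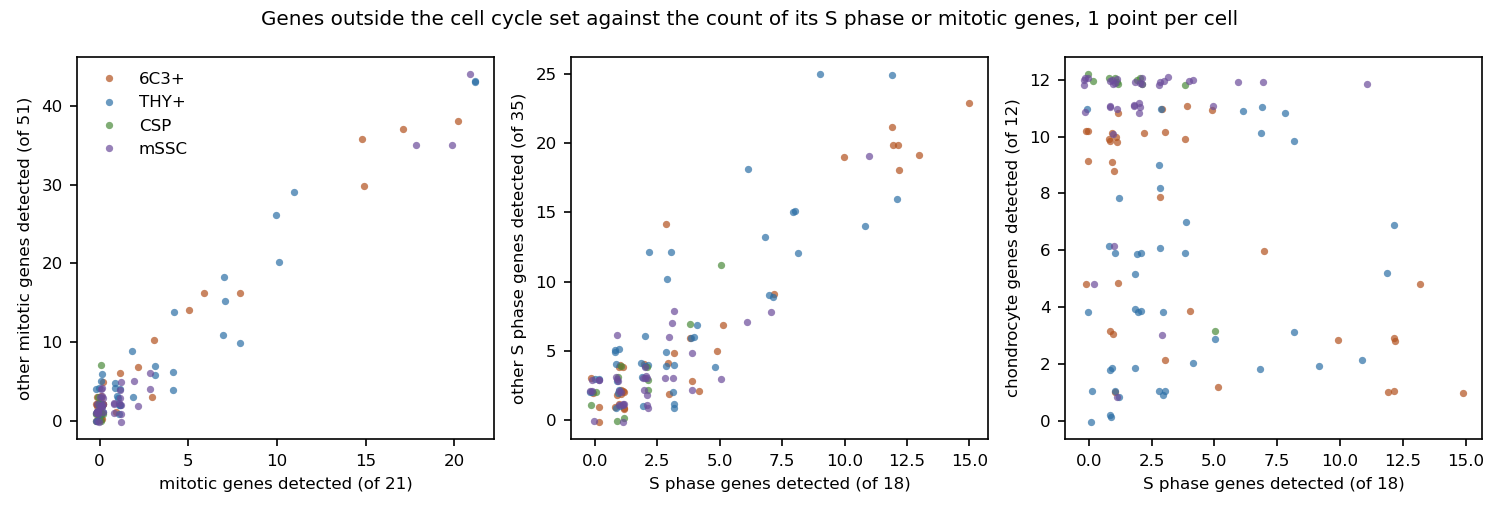
Counts of detected genes outside the set, 1 point per cell in the colour of its population, shifted slightly so that equal counts do not hide each other. The left panel sets 51 other mitotic genes (y axis) against the 21 mitotic members (x axis), the middle panel 35 other S phase genes against the 18 S phase members, and the right panel 12 chondrocyte genes against the 18 S phase members. Cells with 15 or more mitotic members held 30 to 44 of the other mitotic genes.

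Likeness to the members was ranked over 8071 genes outside the set that were detected in at least 10 cells. Unnamed gene models and ribosomal, pseudo and sex-linked genes were left out of the ranking. The genes most like the mitotic members over all cells were D17H6S56E-5 and Smc2 (Spearman rho 0.59 each with the mean level of the 21 genes). Next came Cdca8 (0.59), Prc1, Anln and Pbk (0.58), Neil3 (0.57), Incenp (0.56), and Racgap1 and Pttg1 (0.55). Of these 10 genes 7 were in the list of other mitotic genes and 3 in no list. Cdca8, the borealin subunit of the chromosomal passenger complex, was detected in 15 of 19 cells of the mitotic range and 0 cells outside it. Pbk, a mitotic kinase, was detected in 14 of those 19 cells and 1 cell outside. The ranking and the mitotic range used the same 21 genes, so these counts follow from the choice and are no separate support.

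Among the genes most like the S phase members were Lig1 and Smc2 (rho 0.60), Hells (0.54), Clspn (0.53), Zwilch (0.52), Gmnn (0.51), and Spc24, Ptn and Asf1b (0.49). Of these, 5 were other S phase genes, 2 other mitotic genes and 2 in no list. Ptn, which encodes the secreted growth factor pleiotrophin, was detected in 24 of 27 cells of the S range and 29 of 98 outside it. Here too the ranking and the range used the same genes, so the counts of Ptn are no separate support. These correlations pool populations that differ in plate and spike-in share, so part of each may be a difference between populations, and that was not tested.

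Of the abundant genes, H2afz was present in most cells, and Stmn1 and Hmgb2 were seen with the ranges to different degrees. H2afz, a histone H2A variant, was detected in 32 of 34 6C3+, 36 of 43 THY+, 8 of 11 CSP and 32 of 37 mSSC cells. Its FPKM ran from 0 through a median of 135.6 to 3236 in 6C3+, 0 through 265.8 to 10573 in THY+, 0 through 73.3 to 342 in CSP and 0 through 206 to 7129 in mSSC. The populations overlapped throughout, and CSP had the lowest maximum. In cells in either range its mean log2(FPKM + 1) was 8.80 in 6C3+, against 5.51 in 6C3+ cells in neither range, 8.58 in THY+, against 6.26 in neither, and 10.60 in mSSC, against 5.98 in neither.

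Stmn1, stathmin, which takes microtubules apart, was detected in 11 of 34 6C3+, 17 of 43 THY+, 1 of 11 CSP and 9 of 37 mSSC cells. Its mean log2(FPKM + 1) was 5.40 in 11 6C3+ cells in either range and 0.44 in the 23 in neither, 5.12 in 15 THY+ cells in either range and 1.91 in the 28 in neither, and 9.33 in 5 mSSC cells in either range and 0.84 in the 32 in neither. Hmgb2, a DNA-bending chromatin protein, was detected in 10 of 34 6C3+, 29 of 43 THY+, 2 of 11 CSP and 13 of 37 mSSC cells. It was detected in 7 of 11 6C3+ cells in either range and 3 of 23 in neither, and in 5 of 5 mSSC cells in either range and 8 of 32 in neither. In THY+ it was frequent outside the ranges too, in 11 of 15 cells in either range and 18 of 28 in neither.

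Over all populations together, each G1 regulator was detected in more cells than any mitotic gene and any S phase gene except Pcna. Pcna was detected in more cells than Ccnd1 and Cdkn1a. The G1 regulators differed between populations in their own way. Ccnd2, a D-type cyclin, was detected in 27 of 34 6C3+, 39 of 43 THY+, 6 of 11 CSP and 28 of 37 mSSC cells, and its median FPKM was 29.6 in 6C3+, 51.4 in THY+, 18.4 in CSP and 27.4 in mSSC. Ccnd1 was detected in 13 6C3+, 19 THY+, 5 CSP and 11 mSSC cells. Ccnd3 was the cyclin that set mSSC apart. It was detected in 17 of 34 6C3+ cells (50%, 32.4 to 67.6), 21 of 43 THY+ cells (48.8%, 33.3 to 64.5), 7 of 11 CSP cells (63.6%, 30.8 to 89.1) and 29 of 37 mSSC cells (78.4%, 61.8 to 90.2). Its mean log2(FPKM + 1) was 3.09 ± 3.4 in 6C3+, 3.61 ± 3.84 in THY+, 3.18 ± 2.85 in CSP and 5.34 ± 3.41 in mSSC (SD over cells), so single cells of all populations overlapped.

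Cdkn1b, the inhibitor that holds resting cells in G1, was ordered from low in 6C3+ to high in mSSC. It was detected in 20 of 34 6C3+, 27 of 43 THY+, 8 of 11 CSP and 30 of 37 mSSC cells, and its FPKM ran from 0 through a median of 1.71 to 19.1 in 6C3+, 0 through 4.55 to 367 in THY+, 0 through 12 to 86.3 in CSP and 0 through 12.9 to 174.8 in mSSC. Its mean log2(FPKM + 1) was 1.53 ± 1.5 in 6C3+, 2.80 ± 2.64 in THY+, 3.18 ± 2.33 in CSP and 3.65 ± 2.20 in mSSC (SD over cells). Against mSSC, Cdkn1b differed by -2.11 in 6C3+, -0.85 in THY+ and -0.47 in CSP. The 6 housekeeping genes had median differences of -1.84, -1.38 and -0.69 in the same comparisons. The part of this lower level in the differences of Cdkn1b and Ccnd3 was not tested. Cdkn1a, the inhibitor induced by DNA damage, was detected in 17 of 34 6C3+, 17 of 43 THY+, 7 of 11 CSP and 16 of 37 mSSC cells. Neither inhibitor was confined to cells outside the ranges: Cdkn1b was detected in 22 of 32 cells in either range and 63 of 93 in neither, and Cdkn1a in 13 of 32 in either range and 44 of 93 in neither. In the 9 cells with at least 15 mitotic genes Cdkn1b was detected in 8 and Cdkn1a in 2.

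**Figure D5:**
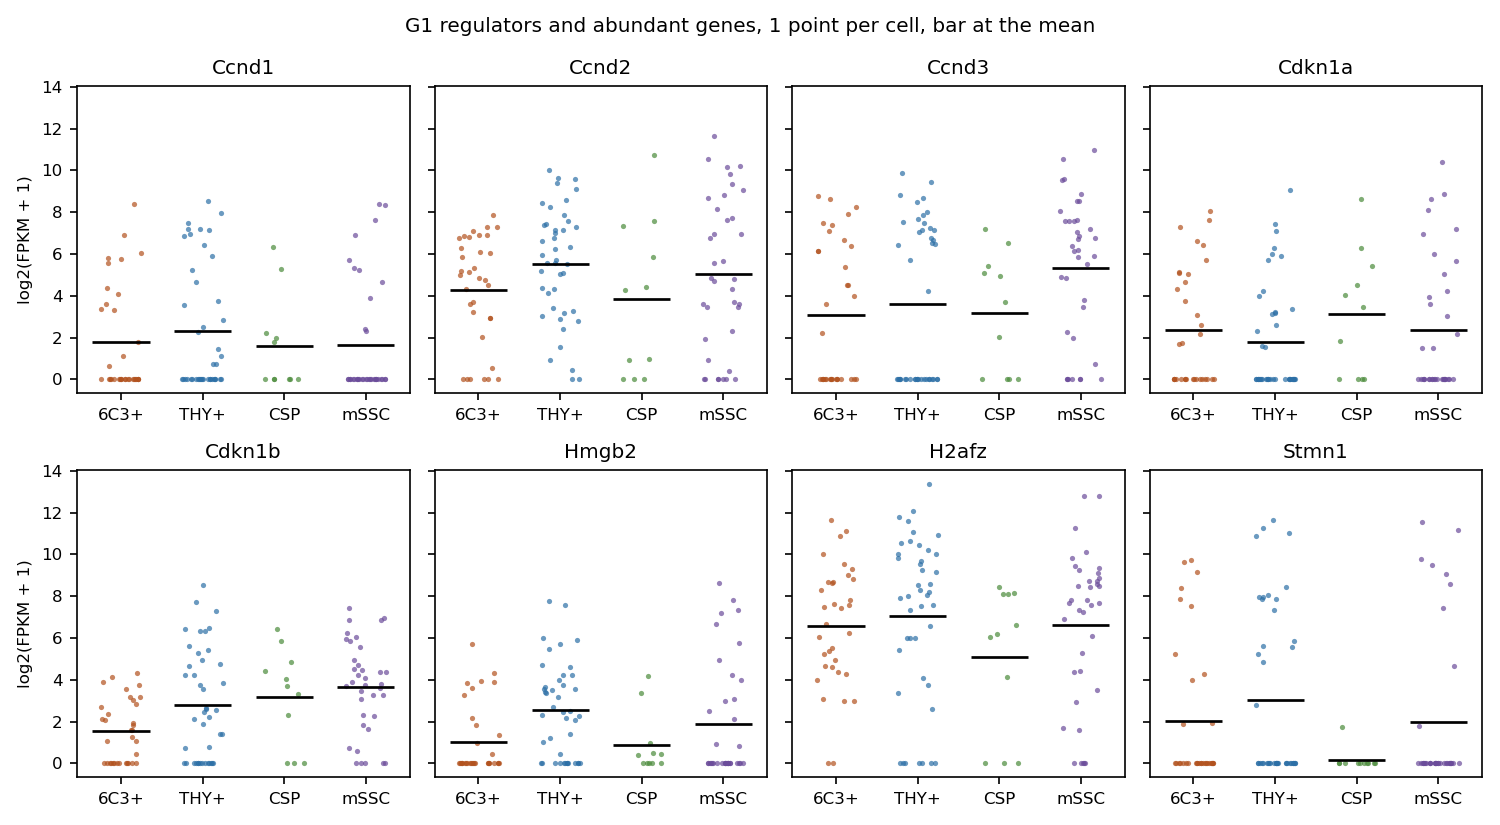
Level of the 5 G1 regulators and 3 abundant genes in each cell, as log2(FPKM + 1) on the y axis, by population (6C3+, THY+, CSP, mSSC) on the x axis. Each point is 1 cell and each bar the mean over cells. The mean of Ccnd3 is highest in mSSC and the points of Stmn1 in CSP lie near 0.

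Of 30 other G1 and arrest genes, the most frequent were Btg1 and Btg2, known to slow proliferation, Cdkn1c, a kinase inhibitor known from growth plate cartilage, and Cdk4, the partner of the D-type cyclins. Btg1 was detected in 29 of 32 cells in either range and 90 of 93 in neither, Cdkn1c in 27 in either range and 81 in neither, Btg2 in 20 in either range and 73 in neither, and Cdk4 in 26 in either range and 42 in neither. Of these 4, Cdk4 had the higher share in the ranges. Cdkn2c, an inhibitor of Cdk4 and Cdk6, was picked out after its values were seen: it was detected in 8 of the 9 cells with at least 15 mitotic genes, 2 of 13 in the S range alone and 6 of 93 in neither. Cdkn2a was detected in 0 cells of any population, which allows a share of up to 2.40%.

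Differences in mean level between populations were called at 1 or more on the scale of mean log2(FPKM + 1), a size and not a test. Between 6C3+ and THY+, 1 member was called higher in 6C3+ and 3 lower, 8.51% of the 47, beside 4.47% of all 24388 genes (0.677% higher, 3.8% lower). Gins2, a subunit of the replicative helicase complex, was higher by 1.25, detected in 11 of 34 6C3+ and 6 of 43 THY+ cells. Hmgb2 (-1.49), Cdkn1b (-1.26) and Ccnd2 (-1.24) were lower in 6C3+. No mitotic gene was called, and the medians were -0.03 over 21 mitotic and 0.00 over 18 S phase genes. The housekeeping genes had a median of -0.37 in this comparison. With FPKM rescaled to the same endogenous total in each cell, 2 members were called higher and 1 lower. Over all cells, including those under 1000 genes, 0 were called higher and 6 lower.

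Between 6C3+ and mSSC, 4 members were called higher in 6C3+ and 2 lower, 12.8% of the 47, beside 6.48% of all genes (1.62% higher, 4.86% lower). The higher ones were S phase genes, Tyms (1.39), Gins2 (1.35), Tk1 (1.06) and Mcm7 (1.03), and the lower ones Ccnd3 (-2.25) and Cdkn1b (-2.11). Of the 18 S phase genes 16 had a difference above 0, with a median of 0.28, while the 21 mitotic genes had a median of -0.03. Of the 13420 genes detected in a cell of the pair, 6003 had a difference above 0 and 7417 below 0. The S phase genes were measured in the same cells, so the 16 are not independent results. The housekeeping genes had a median of -1.84 in this comparison. Rescaled, 8 members were called higher and 2 lower. Over all cells, including those under 1000 genes, 0 were called higher and 9 lower, and the S phase median was -0.15. Among 35 other S phase genes, 4 were called higher and 0 lower, with a median of 0.37.

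Between THY+ and mSSC, 4 members were called higher in THY+ and 1 lower, 10.6% of the 47, beside 7.14% of all genes (3.66% higher, 3.48% lower). Rrm2 (1.37), Mcm7 (1.21), Stmn1 (1.04) and Rrm1 (1.01) were higher and Ccnd3 (-1.73) lower. Over all cells, including those under 1000 genes, 0 members were called higher and 5 lower, and the difference was 0.55 for Rrm2, 0.60 for Mcm7, 0.47 for Rrm1 and -0.14 for Stmn1. The medians were 0.12 over mitotic and 0.24 over S phase genes, with a housekeeping median of -1.38. The comparisons of 6C3+ and of THY+ with mSSC share the mSSC cells, so Mcm7 and Ccnd3 in both are not independent results.

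Between CSP and mSSC, which shared an index plate and a like level of spike-ins, 0 members were called higher in CSP and 10 lower, 21.3% of the 47, beside 8.82% of all genes (5.35% higher, 3.47% lower). They were Stmn1 (-1.83), H2afz (-1.52), Cenpa (-1.23), Birc5 (-1.10), Cdk1 (-1.07), Top2a (-1.001), Ube2c (-1.001), Uhrf1 (-1.03), Ccnd2 (-1.20) and Ccnd3 (-2.16). The medians were -0.67 over the 21 mitotic genes and -0.15 over the 18 S phase genes, beside a housekeeping median of -0.69. CSP had 11 cells with no mitotic gene, and the mSSC means of these genes rested on 2 to 7 of 37 cells in each of the 21 genes.

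The background depends on which genes are counted, since 46 or 47 of the members were detected in 6C3+, THY+ and mSSC, and 18 in CSP, while many genes of the table were detected in no cell. Among genes detected in a cell of the pair, 7.87% were called between 6C3+ and THY+, 11.8% between 6C3+ and mSSC, 12.4% between THY+ and mSSC and 17.2% between CSP and mSSC. Read against those, the members' shares in either direction, 8.51%, 12.8%, 10.6% and 21.3% in the same 4 comparisons, were near the background, and the number of members called is no result about the members. By direction, 846 of 12522 such genes were lower and 1304 higher in CSP, beside 10 and 0 of the 47 members, and 395 of 13420 were higher in 6C3+ than in mSSC, beside 4 of 47, with no test of either. Taking the log2 of the mean FPKM instead of the mean of log2 values turned the mitotic genes towards mSSC, with medians of -1.57 in 6C3+ minus mSSC and -0.98 in THY+ minus mSSC. The 3 mSSC cells with 18 or more mitotic genes held values such as the 512 to 1198 FPKM of Top2a given above.

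Markers of other cell types were measured beside the ranges. In 6C3+, cells in both ranges held 1 through a median of 2 to 5 of 12 chondrocyte genes, against 1 through 10 to 11 in cells in neither range. Col2a1, the collagen of cartilage, was detected in 3 of the 6 6C3+ cells in both ranges and 21 of the 23 in neither, and Acan, the proteoglycan aggrecan, in 3 of the 6 and 20 of the 23. Hapln1, which links aggrecan to hyaluronan, was detected in 2 of the 6 and 18 of the 23, and Sox9, the chondrocyte transcription factor, in 4 of the 6 and 21 of the 23. The order was not the same elsewhere: THY+ cells in both ranges held 2 through 7.5 to 11 chondrocyte genes, against 0 through 4 to 11 in neither, and the 5 mSSC cells in either range held 11 or 12, against 1 through 12 to 12. CSP cell 8, the CSP cell in the S range, held 3 chondrocyte genes while the other 10 CSP cells held 12 each. 6C3+ cell 44, in the mitotic range alone, held 11. Endothelial markers numbered 0 to 2 of 8 and blood cell markers 0 or 1 of 13 in all cells, and Ptprc, which encodes CD45, was at 0 in every cell with at least 1000 genes. The part of chondrocyte content in the ranges was not tested.

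Cells in both ranges had more detected genes than those in neither, with medians of 3204.5 in both and 2421 in neither for 6C3+, 3924.5 in both and 2817 in neither for THY+, and 3197 in both and 2509.5 in neither for mSSC. Limited to cells with 2000 to 4000 genes, a choice made after seeing the data, the mitotic range held 24.1% of 6C3+, 19.4% of THY+, 0% of CSP and 9.38% of mSSC cells, and the S range 27.6% of 6C3+, 22.6% of THY+, 12.5% of CSP and 9.38% of mSSC cells. Limited to cells with spike-ins under 50% of FPKM, also chosen after seeing the data, the mitotic range held 21.2% of 6C3+ and 20% of THY+ cells. Cells in the mitotic range came from 5 of the 8 index rows that held 6C3+ cells, 5 of 7 of THY+ and 3 of 8 of mSSC, so no single row held them.

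The cells under 1000 genes held few members. None of 58 6C3+ cells was in a range. Of 29 THY+ cells 2 were in the mitotic range, with 9 and 8 mitotic genes among 756 and 926 detected genes, and 1 was in the S range with 6 S phase genes. Those 2 cells held 21 and 11 of the other mitotic genes although spike-ins took 92% and 91.7% of their FPKM. Of 15 CSP cells, cell 10, with 670 detected genes, held 5 mitotic members, 15 other mitotic genes and 12 chondrocyte genes. It is the CSP cell in the mitotic range among all 26, so the count of 0 above holds for the 11 fuller cells alone.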

How the data were processed

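The members and gene lists were chosen with earlier results of these data known. The authors' deposited table holds FPKM, a fragment abundance relative to transcript length and to all mapped fragments, for 24388 genes and 92 ERCC spike-ins. Libraries were made with SMARTer and Nextera XT, per the labels' protocols. The submitters' processing notes name the mm10 build and SAMtools, and the program that estimated FPKM is not given in the sources used here. Capture sites had been imaged and those with a single live cell kept, per the labels' protocols, so no doublet caller was run. FPKM is not a count, so no count test was used, and FPKM depends on transcript length and on the spike-ins' share of the reads. Index names tied each column to a cell.

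Detection needed FPKM of at least 1, and cells needed at least 1000 detected genes. Each of the 4 populations was 1 sample. The 4 comparisons were differences of mean log2(FPKM + 1), called at 1 or more, with the share of all genes past that size. Shares have exact Clopper-Pearson 95% intervals, and at 0 the limit is 3 counts. Named were the 3 abundant and 5 G1 genes, the 8 mitotic and 8 S phase members and 4 genes per other list with the highest mean share over populations, the 10 nearest genes per sum (1 is not reported here), the 3 highest cells per population, and members past the size; further names are marked as picked after seeing values. The comparison and the intervals were tested on simulated data. Gene coordinates are from GENCODE for mm10. Tools were scipy 1.17.1, pandas 2.3.3, numpy 2.4.6 and matplotlib 3.10.9 under Python 3.11.15. Alternatives were other detection limits, cuts of 3 and 8 genes, all cells, at least 2000 genes, no first 2 index rows, pseudocounts of 0.1 and 10, rescaled FPKM, the log2 of the mean and genes at mean FPKM of at least 1. Cells with 2000 to 4000 genes and cells with spike-ins under 50% were added after seeing the data.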

Additional observations from a re-analysis of the deposited data

How the results depend on the processing

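Of 72 recomputed shares of cells in a range, 64 stayed within the interval of the value reported. In 6C3+ the mitotic share was 7.61% and the S share 10.9% over all cells, which adds 58 cells under 1000 genes. With a cut of 3 S phase genes the S share was 50% in 6C3+, 53.5% in THY+ and 29.7% in mSSC. With a cut of 8 it was 0% in CSP and 2.70% in mSSC, and with detection at FPKM of at least 10 it was 0% in CSP. Of 52 recomputed counts of members, either past the size or detected in at least 1 cell of a population, 40 stayed within 1.5 times. That total ignores direction. The 12 that moved were all counts of members past the size. Over all cells no member was called higher in any of the 4 comparisons: 6C3+ minus THY+ had 0 higher and 6 lower (1 and 3 in the cells with at least 1000 genes), 6C3+ minus mSSC 0 and 9 (4 and 2), THY+ minus mSSC 0 and 5 (4 and 1) and CSP minus mSSC 0 and 12 (0 and 10). Between 6C3+ and THY+ (4 members) the count was 0 with a pseudocount of 10 and 22 with the log2 of the mean. Between 6C3+ and mSSC (6) it was 10 with a pseudocount of 0.1, 2 with 10, 10 with rescaled FPKM and 30 with the log2 of the mean. Between THY+ and mSSC (5) it was 11, 0 and 17 with pseudocounts of 0.1 and 10 and the log2 of the mean, and between CSP and mSSC (10) it was 19, 3 and 39. The count over all genes moved too: with the log2 of the mean it was 7779, 7774, 7052 and 7153 of 24388 in these 4 comparisons. Stmn1 in THY+ minus mSSC turned to -0.14 over all cells, from 1.04. The cause of these shifts was not tested. No paired analysis was possible because cell numbers pair no cells and no test was made. Cells number 11 in CSP, and depth in reads is unknown, so a gene at 0 is not shown to be absent.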
